A study of Mus musculus with 12 samples.

Results

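The genes described here encode the proteasome, taken from the gene counts of mouse inguinal fat (iWAT, inguinal white adipose tissue), which lies under the skin. A gene was included when its symbol starts with Psma, Psmb, Psmc, Psmd, Psme or Psmg followed by a number and its annotation is protein-coding. That rule gave 48 of the 33200 rows of the table, and 2 pseudogenes that match the name were left out. All 48 passed the filter on low counts, which kept 16656 genes for testing. By role, the 48 genes are 8 alpha-ring subunits, 7 constitutive beta-ring subunits, 3 immunoproteasome subunits, 6 ATPases and 11 other subunits of the regulatory particle, 7 assembly chaperones, 4 activators and 2 genes included by name alone.

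The mice were wild-type C57BL/6 animals and animals with a global Nrep knockout (KO) made by CRISPR/Cas editing, all 16 weeks old and on a standard maintenance diet. Each genotype had 3 libraries, described in the labels as biological replicates. The deletion is present in every tissue, so a difference in fat need not start in fat. Liver samples of the same series (6) were not used. The question is which proteasome transcripts differ between genotypes in iWAT.

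The proteasome is the protease that degrades most ubiquitin-tagged proteins in the cytosol and nucleus. Its barrel-shaped core is built from outer rings of alpha subunits, which gate the entrance, and inner rings of beta subunits, some of which carry the proteolytic sites. A regulatory particle caps the core, with ATPases that unfold the substrate and thread it into the barrel, and non-ATPase subunits that bind ubiquitin chains and remove them. Dedicated chaperones assemble the core and the cap. In immune cells, and in other cells exposed to interferon, 3 inducible beta subunits replace the constitutive catalytic ones, giving the immunoproteasome, which favours peptides suited to presentation on MHC class I. In brown fat cells, the transcription factor Nfe2l1 is known to maintain proteasome gene expression.

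Library totals ran from 17970451 to 20369345 estimated counts, and the 48 genes together took 0.375% to 0.475% of these totals. Levels are given as CPM, the usual depth-scaled counts, after TMM scaling between libraries. The targeted gene, Nrep, had 74.7, 76.5 and 62.1 CPM in the wild-type libraries, while the KO libraries had 2, 2 and 5 counts of it. All 10 adipocyte markers were present in every library, with summed levels of 14614 to 18251 CPM in wild type and 19139 to 33377 CPM in KO. The summed level of 11 skeletal muscle markers was 9.70 to 16.3 CPM in wild type and 690.9 to 4147 CPM in KO. That of 10 macrophage markers was 2798 to 4120 CPM in wild type and 1977 to 2270 CPM in KO. Their part in the differences below was not tested. These are bulk libraries, in which fewer cells of a type and less RNA per cell cannot be told apart.

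No proteasome gene passed the test. With edgeR's quasi-likelihood F-test and Benjamini-Hochberg adjustment over all tested genes, 0 of 48 had an adjusted p under 0.05, against 1.03% of all tested genes. In the same fit 0 of 48 had an unadjusted p under 0.05, against 3760 of the 16656 tested genes. The smallest adjusted p among the 48 was 0.253, for Psmb8. DESeq2 called 0 of the 48 and 10.9% of all genes, and limma-voom called 0 of the 48, with 1 at an unadjusted p under 0.05, and 0.0961% of all genes. The share of all genes under that unadjusted p was not counted in limma-voom. The log2 fold change of KO against wild type was positive for 23 of the genes and negative for 25, with a median of -0.01 against -0.06 over all tested genes. That split depends on the scaling between libraries: with library totals in place of TMM factors, 7 were positive and 41 negative, with a median of -0.15 against -0.19 over all tested genes, and in DESeq2 31 were positive and 17 negative. Only Psmb5 was higher in every KO library than in every wild-type library, 1 of 48 against 15.2% of all tested genes. None of the 48 was lower in every KO library, against 13.1% of all tested genes. By library totals Psmb5 overlapped, so that 0 of 48 were higher in every KO library (11.1% of all tested genes), and 1, Psma4, was lower in every KO library (19.7% of all tested genes).

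The estimated differences were small for most of the 48. In 44 of them (91.7%) the log2 fold change lay within 0.25 of 0, against 45.5% of all tested genes, and by library totals in 37 of 48 (77.1%), against 38.9%. Among genes with a mean of at least 10 CPM, the shares were 42 of 43 for the proteasome and 52.4% for all. The median width of the 95% interval was 0.32 log2 units to either side, against 0.47 over all tested genes. A p that misses the threshold does not show that the genotypes had equal levels, and differences of that size lie inside most of the intervals. The plot of differences by role shows each estimate with its interval.

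**Figure D1:**
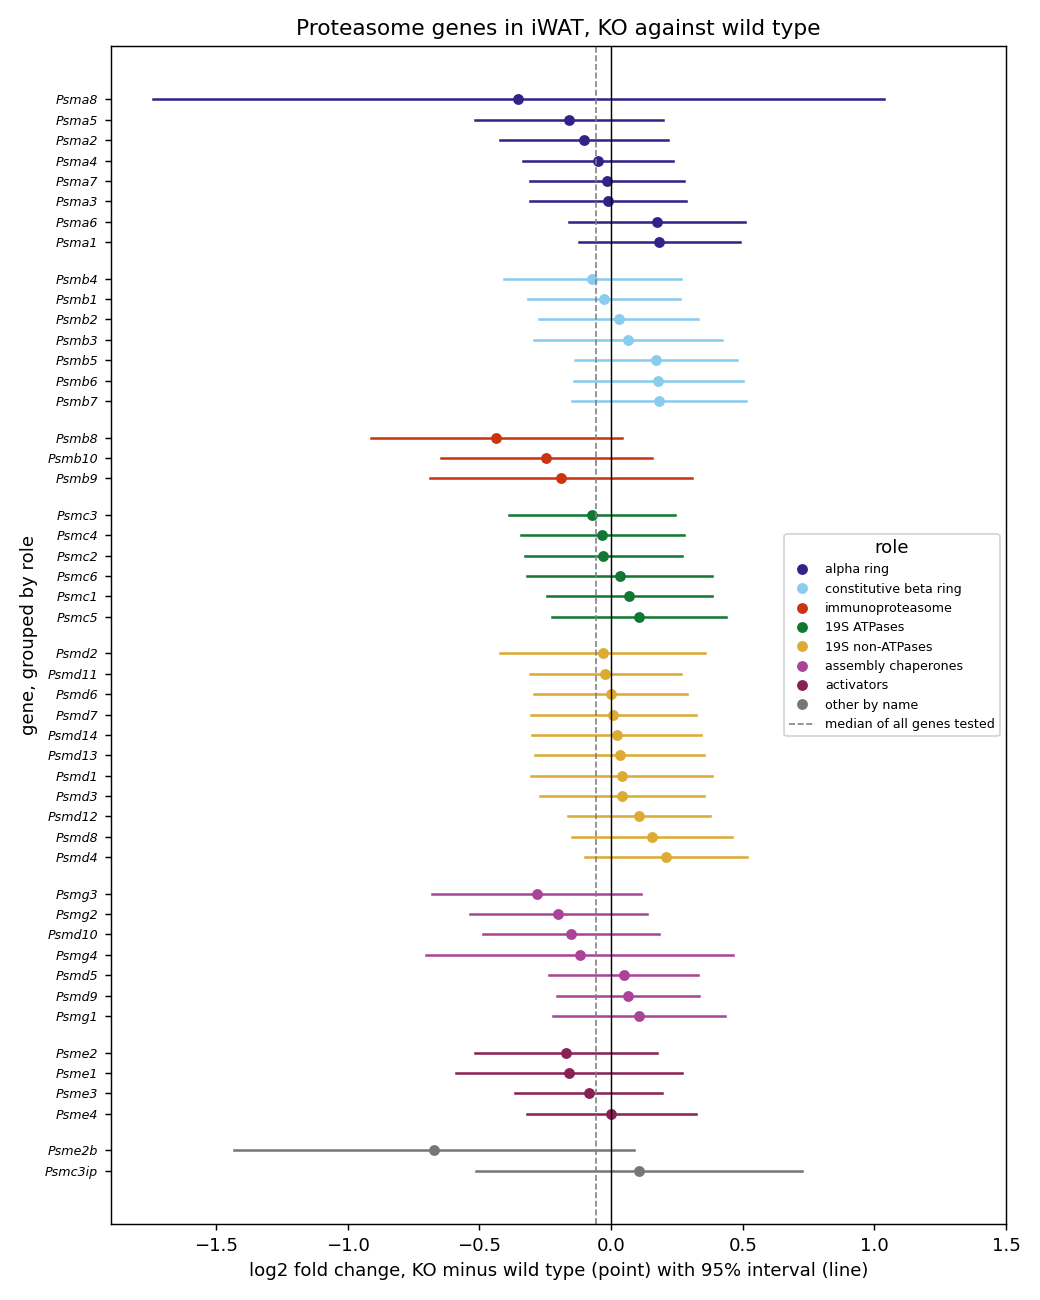
Log2 fold change of KO against wild type for each of the 48 proteasome genes (points) with its 95% interval (lines), grouped and coloured by role, from edgeR on 3 libraries per genotype. Every interval includes 0, and the points of the rings and of the regulatory particle lie close to 0, apart from the low-count Psma8, while the 3 immunoproteasome genes lie to the left.

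The alpha ring forms the outer gate of the core. Among its 8 genes, Psma1 had the highest log2 fold change and Psma8, a testis-enriched variant of Psma7, the lowest. Psma1 was at 111.4, 115.5 and 98.2 CPM in wild type and 131.2, 109.3 and 128.8 CPM in KO. KO replicates 1 and 3 were above all wild-type libraries and KO replicate 2 was among them. The log2 fold change was 0.18 (SE 0.132, 95% interval -0.12 to 0.49, adjusted p = 0.422 in edgeR). Psma8 was near the limit of detection, with counts of 4, 13 and 13 in the wild-type libraries and of 4, 5 and 12 in the KO libraries, where 3 counts correspond to 0.140 to 0.172 CPM. Its log2 fold change of -0.35 had a 95% interval of -1.74 to 1.04, which leaves its direction unresolved. The other 6 alpha genes had log2 fold changes from -0.16 for Psma5 to 0.18 for Psma6.

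The constitutive beta ring holds the catalytic subunits Psmb5, Psmb6 and Psmb7, which cut after hydrophobic, acidic and basic residues, and 4 subunits without catalytic activity. The catalytic subunits had the 3 highest log2 fold changes of the 7. Psmb5 was at 64.4, 64.7 and 49.97 CPM in wild type and 65.5, 65.7 and 70.5 CPM in KO. The groups did not overlap on this scale, but KO replicates 1 and 2 lay just above wild-type replicates 1 and 2, and by library totals, with 67.4, 68.1 and 52.1 CPM in wild type and 60.2, 67.8 and 64.1 CPM in KO, they overlapped. Its log2 fold change was 0.17 (SE 0.133, 95% interval -0.14 to 0.48, adjusted p = 0.456). Psmb6 was at 89.97, 89.2 and 70.04 CPM in wild type and 90.8, 89.3 and 101.9 CPM in KO, with a log2 fold change of 0.18 (95% interval -0.14 to 0.50). Psmb7 was at 113.0, 117.0 and 92.1 CPM in wild type and 130.2, 108.3 and 126.9 CPM in KO, also with a log2 fold change of 0.18 (95% interval -0.15 to 0.51). In all 3 genes wild-type replicate 3 was the lowest library. Psmb4, a structural subunit, had the lowest log2 fold change of the ring, -0.07 (adjusted p = 0.782), from 139.2, 156.0 and 113.8 CPM in wild type and 126.5, 128.5 and 134.5 CPM in KO. The other structural subunits, Psmb1, Psmb2 and Psmb3, had log2 fold changes of -0.03, 0.03 and 0.06.

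The 6 ATPases form the ring that unfolds substrates. Their log2 fold changes ran only from -0.07 for Psmc3 to 0.11 for Psmc5, with a median of 0.00, and by library totals all 6 were negative with a median of -0.14. Psmc3 was at 144.6, 145.4 and 113.6 CPM in wild type and 128.8, 127.1 and 127.9 CPM in KO (adjusted p = 0.764). Psmc5 was at 98.6, 107.3 and 81.5 CPM in wild type and 104.3, 93.6 and 111.5 CPM in KO (adjusted p = 0.668). The other 4 lay between -0.03 for Psmc4 and 0.07 for Psmc1. Apart from Psmc5 in KO replicate 3, all KO values of both genes lay within the wild-type range.

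Of the 11 non-ATPase subunits, 8 had a positive and 3 a negative log2 fold change, with a median of 0.03, while by library totals 2 were positive and 9 negative, with a median of -0.10. Psmd4, a ubiquitin receptor, had the highest, 0.21 (SE 0.134, 95% interval -0.10 to 0.52, adjusted p = 0.374). It was at 118.4, 134.5 and 108.0 CPM in wild type and 147.3, 127.8 and 142.1 CPM in KO. The groups overlapped, since KO replicate 2 lay below wild-type replicate 2. Psmd2, a large scaffold subunit, had the lowest, -0.03 (adjusted p = 0.921), from 227.5, 257.8 and 173.6 CPM in wild type and 217.4, 206.2 and 220.7 CPM in KO. Psmd14, the deubiquitinase that removes ubiquitin chains from substrates, had a log2 fold change of 0.02, and the other 8 lay between -0.02 for Psmd11 and 0.15 for Psmd8.

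Adding the subunits of the rings and the regulatory particle, without Psma8 and the immunoproteasome, gives 31 constitutive genes, most of which were lowest in the same library. Their counts in single libraries ran from 1005 for Psmb2 in KO replicate 1 to 5527 for Psmd2 in wild-type replicate 2. Their summed level was 3305, 3446 and 2724 CPM in wild type and 3315, 3076 and 3343 CPM in KO. Wild-type replicate 3 was the lowest library of all 6. It was the lowest library for 29 of the 31 genes, against 12.0% of all tested genes and 14.8% of genes with a mean of at least 10 CPM. The exceptions were Psma4 and Psmc6, both lowest in KO replicate 2. Scaled by library totals in place of TMM, wild-type replicate 3 was lowest for 21 of the 31, against 8.03% of all tested genes. The mean sum was 3158 ± 382 CPM in wild type and 3245 ± 147 CPM in KO (SD, n = 3 each), so the genotypes differed by less than the spread between the wild-type libraries. By library totals the sums were 3457, 3626 and 2842 CPM in wild type and 3047, 3175 and 3041 CPM in KO. Their means, 3309 ± 413 and 3088 ± 76.0 CPM, lay in the other order, again closer than the spread between the wild-type libraries. The median log2 fold change of the 31 genes was 0.03, and it turned to -0.08 without wild-type replicate 3 and to -0.11 by library totals.

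**Figure D2:**
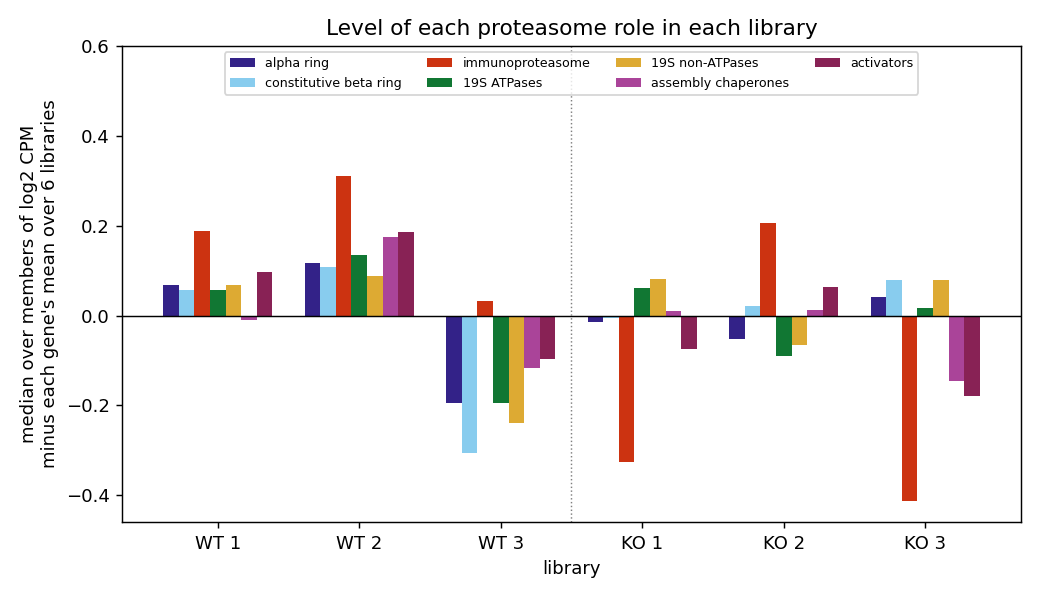
Level of each proteasome role in each of the 6 libraries, as the median over its genes of log2 CPM minus the gene's mean over all libraries (bars; colours mark roles; the axis is in log2 units). In wild-type replicate 3 the rings and both classes of the regulatory particle lie between -0.31 and -0.19, while the immunoproteasome bars are lowest in KO replicates 1 and 3, at -0.33 and -0.41.

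The immunoproteasome genes followed another pattern across libraries. Psmb8 replaces Psmb5, Psmb9 replaces Psmb6 and Psmb10 replaces Psmb7 in the core. Psmb8 (ENSMUSG00000024338) was at 174.3, 181.6 and 147.7 CPM in wild type and 109.5, 164.0 and 98.7 CPM in KO. KO replicates 1 and 3 lay below every wild-type library, and KO replicate 2 lay among them. The mean was 168 ± 17.9 CPM in wild type and 124 ± 35.0 CPM in KO (SD, n = 3 each). The log2 fold change was -0.44 (SE 0.206, 95% interval -0.91 to 0.04, adjusted p = 0.253 in edgeR). Psmb9 (ENSMUSG00000096727) was at 57.7, 65.3 and 56.2 CPM in wild type and 43.8, 72.0 and 41.2 CPM in KO. Its KO replicate 2 was the highest of all 6 libraries, and the log2 fold change was -0.19 (SE 0.215, 95% interval -0.69 to 0.31, adjusted p = 0.610). Psmb10 (ENSMUSG00000031897) was at 69.5, 75.8 and 56.1 CPM in wild type and 51.0, 69.1 and 49.7 CPM in KO. Again KO replicates 1 and 3 were the lowest libraries, with a log2 fold change of -0.25 (SE 0.173, 95% interval -0.65 to 0.15, adjusted p = 0.413). KO replicate 3 was the lowest library for all 3 genes, and for 31.8% of all tested genes.

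These calls turned on KO replicate 2. Without that library Psmb8 had a log2 fold change of -0.63 (adjusted p = 0.0161 in edgeR) and Psmb9 one of -0.43 (adjusted p = 0.0342), while Psmb10, at -0.36, did not pass (adjusted p = 0.1096). Leaving it out also raised the share of all tested genes called to 25.3%, and 2 of 48 proteasome genes is below that share. With the other 5 single libraries left out in turn, 0 of the 48 passed. Of all 16656 tested genes, 334 (2.01%) were called when wild-type replicate 3 was dropped, and only 1 to 3 in each remaining fit. Where so few genes were called at all, 0 of 48 says little about the proteasome genes.

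Set against their constitutive counterparts in the same library, the inducible subunits were again lowest in KO replicates 1 and 3. The log2 ratio of Psmb8 to Psmb5 CPM was 1.44, 1.49 and 1.56 in wild type and 0.74, 1.32 and 0.48 in KO. That of Psmb9 to Psmb6 was -0.64, -0.45 and -0.32 in wild type and -1.05, -0.31 and -1.31 in KO. That of Psmb10 to Psmb7 was -0.70, -0.63 and -0.71 in wild type and -1.35, -0.65 and -1.35 in KO. In each pair KO replicates 1 and 3 lay below all wild-type ratios. KO replicate 2 lay below the wild-type range for Psmb8 to Psmb5, just above it for Psmb9 to Psmb6 and within it for Psmb10 to Psmb7. The mean differences, KO minus wild type, were -0.65, -0.42 and -0.44 log2 units, and -0.88, -0.71 and -0.67 without KO replicate 2. A ratio within a library does not depend on the scaling between libraries.

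**Figure D3:**
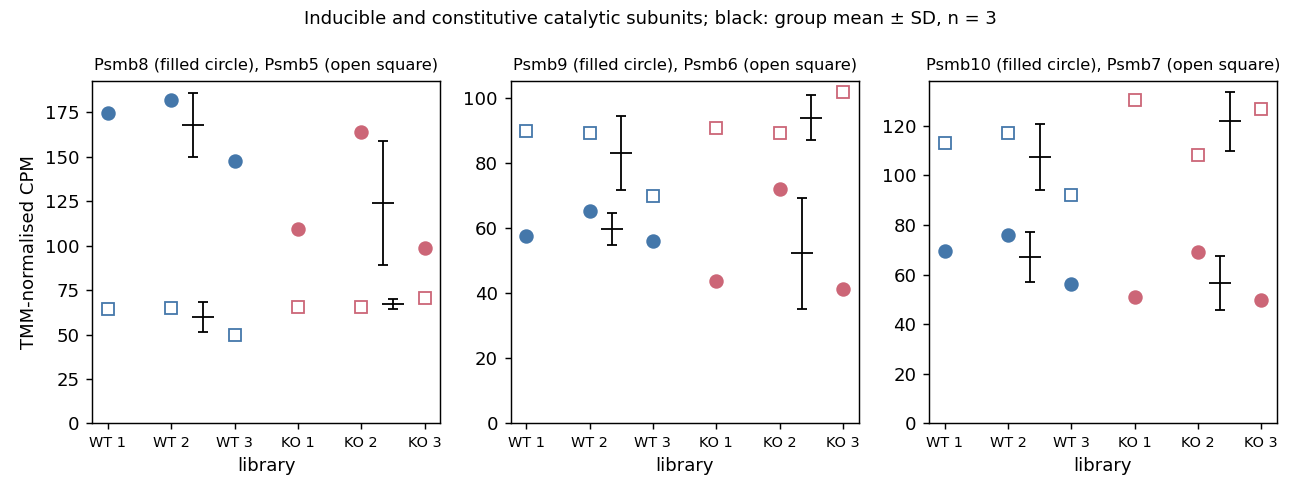
CPM in each library of the 3 inducible catalytic subunits (filled circles) and of the constitutive subunit each replaces (open squares), 1 panel per pair, blue for wild type and red for KO, with the mean ± SD of each gene and genotype in black (n = 3). KO replicates 1 and 3 have the lowest circles in every panel (Psmb8 at 109.5 and 98.7 CPM), while KO replicate 2 (Psmb8 at 164.0 CPM) lies near or above the wild-type mean and the lowest Psmb5 and Psmb6 squares are in wild-type replicate 3.

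Lymphocyte, muscle and adipocyte markers also set KO replicate 2 apart from KO replicates 1 and 3. The summed level of 8 B cell markers was 2122, 2476 and 1774 CPM in wild type and 1079, 2355 and 654.0 CPM in KO, and none was at 0 in any library. That of 10 T and NK cell markers was 491.8, 563.4 and 587.7 CPM in wild type and 358.3, 694.4 and 230.9 CPM in KO, again with none at 0. For both lists KO replicates 1 and 3 were the lowest libraries. Macrophage markers did not share the split: all 3 KO libraries lay below all wild-type libraries in their sum. Skeletal muscle markers summed to 4147, 690.9 and 3828 CPM in the KO libraries, against at most 16.3 CPM in wild type. Adipocyte markers summed to 15781, 14614 and 18251 CPM in wild type and 28240, 19139 and 33377 CPM in KO, so both lists were highest in the libraries where the immunoproteasome was lowest. The part of lymphocyte, muscle or adipocyte content in the immunoproteasome values was not tested.

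**Figure D4:**
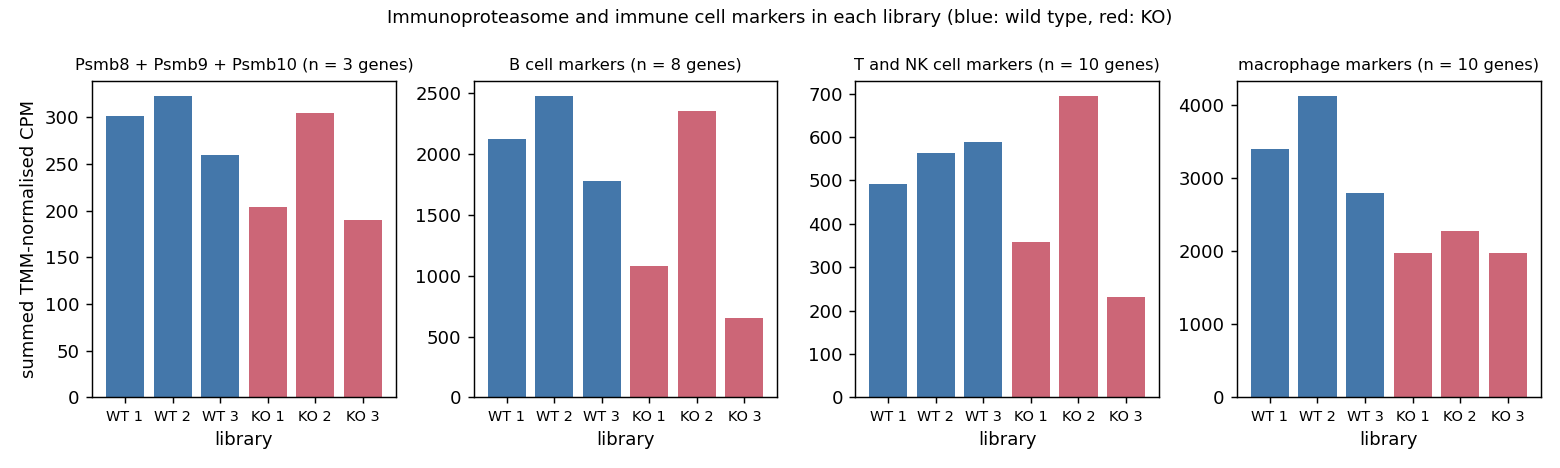
Summed CPM in each of the 6 libraries (bars; blue wild type, red KO) of the 3 immunoproteasome genes and of the B cell, T and NK cell, and macrophage marker lists, 1 panel each. KO replicates 1 and 3 have the lowest bars for the immunoproteasome (204.4 and 189.6 CPM) and for both lymphocyte lists, KO replicate 2 (305.1 CPM) lies among the wild-type libraries, and for macrophage markers all 3 KO bars are below the wild-type bars.

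The promoters of 4 genes are shown, those of the 3 immunoproteasome genes and of Psmb5, the constitutive subunit that Psmb8 replaces. Each line gives the 120 bases before the gene's start in RefSeq (mouse build GRCm38.p6), read 5′ to 3′ on the gene's own strand. Capitals mark a match to one of the motifs searched: TGANNNNGC, the core of the antioxidant response element bound by Nfe2l1 and Nfe2l2, TTCNNNGAA, the core of the gamma-activated site of interferon-gamma target genes, and the core of the interferon-stimulated response element (GAAA and GAAA with 2 bases between them), all on either strand.
Psmb5: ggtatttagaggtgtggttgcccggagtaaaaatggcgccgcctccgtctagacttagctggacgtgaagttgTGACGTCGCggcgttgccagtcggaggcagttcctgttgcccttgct
Psmb8: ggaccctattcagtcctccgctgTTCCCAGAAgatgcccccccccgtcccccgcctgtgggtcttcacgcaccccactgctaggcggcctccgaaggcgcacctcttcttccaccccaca
Psmb9: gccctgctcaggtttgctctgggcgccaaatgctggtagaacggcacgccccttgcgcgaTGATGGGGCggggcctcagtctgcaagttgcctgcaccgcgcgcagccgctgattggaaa
Psmb10: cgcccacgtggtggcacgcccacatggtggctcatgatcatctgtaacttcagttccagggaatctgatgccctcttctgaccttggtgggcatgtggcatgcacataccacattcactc

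The Psmb5 stretch (chr14:54617996-54618115, minus strand) holds the antioxidant response core 47 bases before the start. The Psmb8 stretch (chr17:34198075-34198194, plus strand) holds the gamma-activated core 97 bases before the start. Psmb8 also has an antioxidant response core 23 bases after the start, and Psmb5 another 41 bases after it, both outside the stretches shown. The Psmb9 stretch (chr17:34187331-34187450, minus strand) holds the antioxidant response core 60 bases before the start, and the Psmb10 stretch (chr8:105938393-105938512, minus strand) holds none of the 3. The starts of Psmb8 and Psmb9 are 10865 bases apart in the MHC region, and the gene between them is Tap1, which encodes a subunit of the peptide transporter that feeds MHC class I.

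Over windows from 250 bases before to 50 after the start, RefSeq gave promoters for 40 of the 48 genes. The antioxidant response core was found in 23 of the 40 (57.5%, 95% Wilson interval 42.2 to 71.5) and in 45.0% of 27025 genes. In the 250 bases before the start alone, the shares were 40.0% and 38.7%. The interferon-stimulated core was found in 5 of 40 (12.5%, interval 5.46 to 26.1) against 3.99%, in Psmb3, Psmd4, Psmd9, Psmg4 and Psme1, and before the start alone in 3 of 40 (7.5%, interval 2.58 to 19.9) against 3.46%. The gamma-activated core was found in 3 of 40 (7.5%) against 9.55%, in Psmb8, Psmd2 and Psmg1, and before the start alone in 2 of 40 (5.0%) against 8.13%. A match describes letters in a window and is not evidence of binding.

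The 4 activators open the gate of the core from outside. Psme1 and Psme2 form the interferon-inducible PA28 cap of the cytosol, Psme3 its nuclear relative and Psme4 a large single-chain activator. Psme1 was at 168.2, 198.5 and 150.5 CPM in wild type and 143.0, 191.1 and 128.6 CPM in KO. Its lowest libraries were again KO replicates 3 and 1, but wild-type replicate 3 was close to them (log2 fold change -0.16, SE 0.186, adjusted p = 0.615). Psme2 was at 174.3, 192.0 and 148.1 CPM in wild type and 149.0, 169.8 and 137.8 CPM in KO. It had the lowest log2 fold change of the 4, -0.17 (SE 0.150, 95% interval -0.52 to 0.17, adjusted p = 0.503). Psme4 had the highest, 0.00 (95% interval -0.32 to 0.32, adjusted p = 0.996), from 95.3, 85.4 and 88.7 CPM in wild type and 102.2, 76.4 and 91.0 CPM in KO. Psme3 had a log2 fold change of -0.09.

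The 7 assembly chaperones had a median log2 fold change of -0.12, with 3 positive and 4 negative, and by library totals 0 positive and 7 negative with a median of -0.24. Psmg1 to Psmg4 guide the alpha and beta rings, and Psmd5, Psmd9 and Psmd10 guide the base of the regulatory particle. Psmg3 had the lowest, -0.28 (SE 0.172, 95% interval -0.68 to 0.11, adjusted p = 0.352), from 10.2, 9.61 and 8.41 CPM in wild type and 6.94, 8.57 and 7.67 CPM in KO. Only KO replicate 2 lay inside the wild-type range. Psmg1 had the highest, 0.11 (adjusted p = 0.663), from 17.7, 19.7 and 14.9 CPM in wild type and 19.04, 18.4 and 18.8 CPM in KO. The KO values of Psmg1 all lay within the wild-type range. Psmg2, Psmd10 and Psmg4 had log2 fold changes of -0.20, -0.15 and -0.12, and Psmd5 and Psmd9 had 0.05 and 0.06.

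The remaining pair of genes met the rule by symbol. Psmc3ip, a cofactor of meiotic recombination and not a proteasome subunit, was at 2.23, 2.01 and 1.96 CPM in wild type and 1.78, 2.71 and 2.17 CPM in KO (log2 fold change 0.11, adjusted p = 0.827). Psme2b, a near copy of Psme2, was at 5.53, 6.44 and 7.50 CPM in wild type and 4.24, 5.66 and 2.28 CPM in KO. Its log2 fold change, -0.67 (SE 0.328, 95% interval -1.43 to 0.09, adjusted p = 0.264), was the lowest of all 48. The deposited counts of Psme2 and Psme2b are not whole numbers, so reads may have been split between the copies, and both values are uncertain for that reason. Other proteasome genes, Psma3 and Psmb3 among them, also had counts that were not whole.

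Levels can be compared between genes only per transcript length, here as CPM per kilobase of the annotated coding transcripts. Among the 31 constitutive and 3 immunoproteasome genes, Psma6 had the highest wild-type level (139.6 ± 18.4 CPM per kilobase, SD, n = 3) and Psma3 the lowest (29.1 ± 3.33). Neighbours in the order from Psmb4 at rank 2 to Psmb8 at rank 6 did not differ beyond their SDs, at 115.3 ± 17.95 and 103.1 ± 11.0 CPM per kilobase. In KO, Psmb8 was at 76.2 ± 21.5 CPM per kilobase and rank 15 of the 34. Psmb10 had rank 21 in wild type and 26 in KO, and Psmb9 rank 26 and 29. The annotated lengths of Psma2 (2.911 kb) and Psma3 (2.846 kb) are long for alpha subunits, so their per-kilobase levels may be too low.

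**Figure D5:**
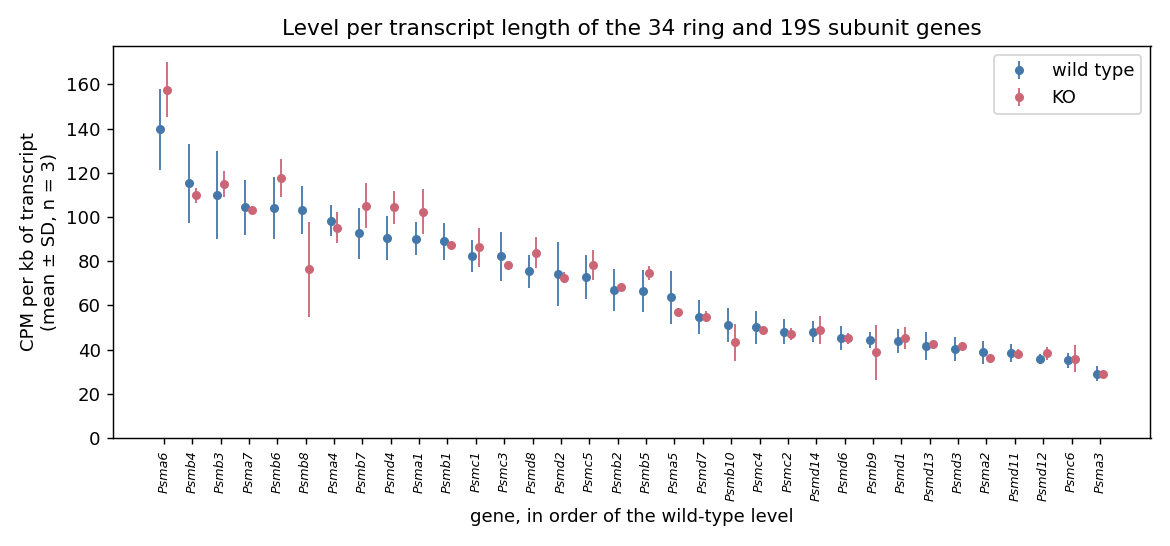
Mean level of the constitutive and immunoproteasome genes in CPM per kilobase (± SD, n = 3 libraries per genotype), ordered by the wild-type mean. Most KO means follow the wild-type order, and Psmb8 goes from rank 6 in wild type to rank 15 in KO with a wide SD.

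Proteasome partners outside the naming rule gave 0 of 9 tested genes past the test, against 1.03% of all tested genes. At that share, 0 of 9 says little. The median log2 fold change of the partners was 0.12. Ecpas, an adaptor of the proteasome, had a log2 fold change of 0.12 (adjusted p = 0.632), and Pomp, the maturation chaperone of the core, one of -0.08 (adjusted p = 0.719). By library totals Pomp was lower in every KO library, as were 19.7% of all tested genes. Adrm1, a ubiquitin receptor of the regulatory particle named here after its values were seen, was at 59.7, 59.6 and 49.4 CPM in wild type and 63.6, 61.5 and 71.5 CPM in KO. Its log2 fold change was 0.22 (adjusted p = 0.327). With TMM scaling it was higher in every KO library, as were 15.2% of all tested genes. By library totals its groups overlapped.

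Of 8 regulators of proteasome transcription, 0 passed the test, against 1.03% of all tested genes. At that share, 0 of 8 says little. Nfe2l1 was at 321.5, 316.4 and 301.7 CPM in wild type and 420.2, 345.4 and 484.6 CPM in KO. Every KO library was above every wild-type library, as for 15.2% of all tested genes. The log2 fold change was 0.41 (SE 0.163, 95% interval 0.03 to 0.79, adjusted p = 0.188), and the adjusted p was 0.0147 without KO replicate 2. That last fit called 25.3% of all tested genes. Nfe2l1 was highest in KO replicates 3 and 1, where adipocyte marker sums were also highest (33377 and 28240 CPM) and where skeletal muscle markers were highest too (3828 and 4147 CPM, against 690.9 CPM in KO replicate 2). The part of either in it was not tested. Nfe2l2 had a log2 fold change of -0.13 (adjusted p = 0.549). By library totals Nfe2l2 was lower in every KO library, as were 19.7% of all tested genes. Ddi2, of the same list and named here after its values were seen, had one of -0.26 (adjusted p = 0.246). With TMM scaling it was the 1 regulator of the 8 that was lower in every KO library, against 13.1% of all tested genes.

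Upstream of the proteasome, 0 of 12 genes for the Vcp unfoldase and ubiquitin shuttles passed the test (median log2 fold change 0.08). For ubiquitin and its conjugation, 0 of 15 genes passed (median log2 fold change 0.00). With 1.03% of all tested genes called, 0 of 12 and 0 of 15 say little. Vcp, which extracts ubiquitinated proteins, had a log2 fold change of 0.01 and Ubqln1, a shuttle factor, one of 0.03. The ubiquitin gene Ubb had one of 0.17 (adjusted p = 0.531). The signs of Vcp and Ubqln1 turned under scaling by library totals. Another 3 genes were named after their values were seen. Rps27a, a ubiquitin fused to a ribosomal protein, was at 392.0, 442.8 and 420.7 CPM in wild type and 292.6, 449.97 and 288.9 CPM in KO, low in the same 2 KO libraries as Psmb8 (log2 fold change -0.28, adjusted p = 0.421, and 0.0285 without KO replicate 2). Uba6, an enzyme that activates ubiquitin, was lower in every KO library, at 27.9, 26.9 and 27.2 CPM in wild type and 23.6, 22.0 and 20.3 CPM in KO (log2 fold change -0.32, adjusted p = 0.157). Ufd1, a cofactor of Vcp, was higher in every KO library, at 55.4, 55.5 and 53.5 CPM in wild type and 70.3, 58.4 and 69.9 CPM in KO (log2 fold change 0.27, adjusted p = 0.214, and 0.0239 without KO replicate 2). The fit without KO replicate 2 called 25.3% of all tested genes. Of all tested genes, 13.1% were lower and 15.2% higher in every KO library. Of the 12 unfoldase and shuttle genes, 3 were higher in every KO library, Ufd1 among them, and 0 lower. Of the 15 ubiquitin genes, 1 was higher and 3 were lower, Uba6 among the latter.

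Of 14 genes for antigen processing and interferon response, 0 passed the test, against 1.03% of all tested genes. At that share, 0 of 14 says little. Among these 14, 12 had a negative log2 fold change and the median was -0.18. The most abundant, H2-D1 and B2m, which form the MHC class I molecule, had log2 fold changes of 0.01 (adjusted p = 0.973) and 0.07 (adjusted p = 0.827), both of which turned negative under scaling by library totals. Tap1, named for its place between Psmb8 and Psmb9 and after its values were seen, was at 135.4, 145.2 and 117.7 CPM in wild type and 80.6, 138.4 and 69.6 CPM in KO. The same 2 KO libraries were low (log2 fold change -0.46, SE 0.253, adjusted p = 0.310 in edgeR, and 0.00974 without KO replicate 2). Nlrc5, the transactivator of MHC class I genes and also chosen after its values were seen, was at 93.6, 111.9 and 95.3 CPM in wild type and 61.9, 98.4 and 57.3 CPM in KO (log2 fold change -0.47, adjusted p = 0.240, and 0.0102 without KO replicate 2). Without KO replicate 2, 25.3% of all tested genes were called. Isg15, an interferon-stimulated ubiquitin-like protein chosen the same way, had a different library pattern, with 62.0, 68.2 and 11.5 CPM in wild type and 9.64, 16.0 and 11.1 CPM in KO. There wild-type replicate 3 lay with the KO libraries (log2 fold change -1.95, adjusted p = 0.113, and 0.00873 without wild-type replicate 3). Ifit1, another interferon-stimulated gene chosen the same way, was at 47.6, 49.2 and 18.7 CPM in wild type and 15.03, 15.3 and 14.9 CPM in KO (log2 fold change -1.35, adjusted p = 0.0798 in edgeR, 0.00329 in DESeq2, and 0.0033 in edgeR without wild-type replicate 3). Of all tested genes, 10.9% were called in DESeq2 and 2.01% in edgeR without wild-type replicate 3. The low values of Psmb8, Psmb9, Psmb10, Tap1 and Nlrc5 were thus in KO replicates 1 and 3, and those of Isg15 and Ifit1 in all 3 KO libraries and wild-type replicate 3.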

How the data were processed

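Estimated counts per gene were deposited by the authors as 1 table for iWAT, with 1 column per library and no scaling between libraries. Per the labels' protocols, the libraries were stranded and poly(A)-selected. Per the submitters' processing notes, the series used fastp, featureCounts and 2 genome builds (GRCm38, GRCm39), and which applied to iWAT is not stated. How the non-whole estimated counts arose was not given in the sources used here. Between 9.53% and 11.1% of values per library were not whole, and all were rounded for the tests.

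Symbols came from GENCODE M21 (26384 of 33200 identifiers matched). edgeR 4.0.16 (R 4.3.3) was run with TMM factors, filterByExpr and robust quasi-likelihood F-tests, two-sided, Benjamini-Hochberg adjusted over 16656 genes at 0.05. DESeq2 1.42.0, limma-voom (limma 3.58.1), other scalings and filters, a block on replicate number and fits without each library in turn were alternatives. Group levels and overlap by library totals were chosen after seeing the data. Interval limits of log2 fold changes are 95% limits from the same fit. Promoters are RefSeq windows of GRCm38.p6. The tests were checked on simulated counts.

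The members and gene lists were chosen with earlier results of these data known. Full values are given for the genes with the highest and lowest log2 fold change of each role, the inducible subunits with their counterparts, and, from each other list, up to 4 genes past the test or else the 2 most abundant, except where a gene is not reported here.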

Additional observations from a re-analysis of the deposited data

How the results depend on the processing

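The number of genes past the test over the whole table, 171 in the fit reported, was 1823 in DESeq2, 16 in limma-voom, 1370 without the filter on low counts, 1378 at an adjusted p of 0.10, and 1 to 4221 with single libraries left out. Under the same settings the number of proteasome genes past the test was 0 in all but 1, and 0 to 2 with single libraries left out, the 2 being Psmb8 and Psmb9 without KO replicate 2. The median log2 fold change of the 48 genes was -0.15 under scaling by library totals, where the median of all tested genes was -0.19, a shift of -0.13, and it was -0.10 to 0.08 with single libraries left out. That of the immunoproteasome was -0.43 to -0.15 with single libraries left out, and the differences in log2 ratio ranged from -0.88 to -0.46 for Psmb8/Psmb5, from -0.71 to -0.21 for Psmb9/Psmb6 and from -0.67 to -0.32 for Psmb10/Psmb7.

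Of the 48 genes, the sign of the log2 fold change turned for 16 under library totals, for 8 in DESeq2, for 8 with RLE size factors and for 9 with upper-quartile factors. Among genes whose value is given singly, it turned under library totals for Psmb2 (-0.11), Psmb3 (-0.071), Psmc1 (-0.073), Psmc5 (-0.035), Psmd5 (-0.088), Psmd9 (-0.073), Psmd14 (-0.12), Psmg1 (-0.031), Psme4 (-0.14), Psmc3ip (-0.019), Ecpas (-0.027), Vcp (-0.13), Ubqln1 (-0.11), H2-D1 (-0.12) and B2m (-0.067). In DESeq2, with RLE size factors and with upper-quartile factors, in that order, it turned for Psmb1 (0.0107, 0.0107 and 0.036), Psmc4 (0.00365, 0.00367 and 0.030), Psmd2 (0.00597, 0.00598 and 0.033) and Psmd11 (0.0171, 0.0172 and 0.042), and in limma-voom for Psme4 (-0.0060). Leaving out single libraries turned the sign of 3 to 11 of the 48, and among genes whose value is given singly of Psmb1 (-0.10 to 0.032), Psmb2 (-0.083 to 0.11), Psmb3 (-0.077 to 0.17), Psmb4 (-0.19 to 0.037), Psmc1 (-0.0020 to 0.21), Psmc4 (-0.14 to 0.067), Psmd2 (-0.18 to 0.10), Psmd5 (-0.017 to 0.16), Psmd11 (-0.095 to 0.073), Psmd14 (-0.092 to 0.13), Psmg4 (-0.27 to 0.037), Psme4 (-0.10 to 0.16), Psmc3ip (-0.0073 to 0.24), Pomp (-0.15 to 0.028), Nfe2l2 (-0.18 to 0.017), Vcp (-0.10 to 0.12), Ubqln1 (-0.036 to 0.16) and H2-D1 (-0.032 to 0.057). None of these genes passed the test in any setting. The share of promoters with the antioxidant response core was 40.0% in the 250 bases before the start alone. The cause of these changes was not tested.

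With the replicate number as a block, 1225 genes and 0 of the 48 passed the test, and Psme4 was at -0.0072. The labels do not say that a shared number marks a shared litter or day. Deviations of same-numbered libraries correlated at -0.01, 0.20 and 0.11, so not every pair was above 0.1. Wild-type replicate 1 correlated best with KO replicate 2 (0.003) and wild-type replicate 3 with KO replicate 1 (0.14), not with their own numbers.

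With 3 libraries a group, an interval of about 0.32 log2 units to either side limits what could be seen in these genes. At the counts of Psma8 (4 to 13) no direction could be read.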
